A study of Mus musculus with 12 samples.

Results

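The ribosome is built from a small (40S) and a large (60S) subunit, and its cytosolic proteins are encoded by single-copy genes that most cells transcribe at a high level and in balanced amounts. Their mRNAs begin with a short run of pyrimidines, through which mTORC1, a kinase complex that AMPK holds back when energy is low, sets how well they are translated. Oocytes assemble and store ribosomes as they grow, so these genes are a usual part of descriptions of the growing oocyte. The genes described here are the protein-coding rows of the count table whose Ensembl identifier maps to a mouse symbol of the form *Rpl*, *Rps* or *Rplp* followed by a number and, where present, by a, l or x. Of 82 names of that form, 3 belong to pseudogenes (*Rpl32l*, *Rpl6l* and *Rps4l*) and were left out, which gave 79 genes of 55401 rows, 21897 of them protein-coding. They are 46 genes of the large subunit, 30 of the small subunit, and the 3 genes *Rplp0*, *Rplp1* and *Rplp2* of the P stalk, the arm of the large subunit that receives the elongation factors.

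RNA was sequenced from oocytes that were cut by laser capture from fixed, paraffin-embedded and stained sections of ovaries of C57Bl/6j x CBA/J hybrid mice, 7 to 8 days old, after 5 days of culture. The 4 groups were oocytes of primordial follicles and oocytes of primary follicles, each from ovaries kept with DMSO (control, named sham in the labels) or with dorsomorphin (DM), an inhibitor of AMPK for which the methods of the study choose 10 µM. Each group had 3 libraries, each from 200 pooled oocytes by the figure legends, and the labels call all the material in vivo although the methods describe cultured ovaries. The comparison of DM with control asks what the inhibitor did to the oocyte at each stage, and the comparison of primary with primordial follicles what differed between the stages.

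Total counts per library ran from 14034586 to 42639326, and levels are given as counts scaled to a library total of 1000000 (CPM). A count of 0 allows up to 3 counts, which is 0.0704 to 0.214 CPM in these libraries, and this limit covers counting error only, since the RNA was amplified and counted without molecular identifiers. Several defining oocyte markers were at or near 0. *Bmp15*, *Figla*, *Oosp1* and *Ooep* stayed at or below 2.21 CPM in every library, while *Ddx4* reached 1113 CPM and the 16 oocyte markers together ran from 7.60 to 1681 CPM. The 10 granulosa cell markers summed to between 255 and 14298 CPM and the 10 stroma and theca markers to between 2165 and 12531 CPM, while the 6 blood and vessel markers stayed at or below 24.9 CPM. These sums were uneven too. Of the granulosa markers, *Fshr* was at 0 and *Inhba* and *Amh* at or below 2.55 CPM in every library, while *Foxl2* reached 11123 CPM. Of the stroma and theca markers, *Star* and *Cyp17a1* stayed at or below 0.380 CPM, while *Col1a2* reached 7897 CPM. Fewer cells of a type and less RNA per cell cannot be told apart in such pooled samples. The part of these other cells in the values below was not tested.

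The annotated start sites of these genes were searched for the pyrimidine run. Of the 79 genes, 59 were found in the RefSeq promoter table (GRCm38.p6), with 71 start sites. An unbroken run of at least 8 C or T bases on the transcribed strand, touching the 10 bases on either side of the start, was present at 29 of 71 starts (40.8%), against 13.7% of all 32851 starts in the table. The first transcribed base was C at 28.2% of the starts of ribosomal protein genes and at 16.3% of all starts. The windows below were chosen to show the run in a kinase target (*Rps6*), a P stalk gene (*Rplp2*), a gene of very low level (*Rpl38*) and highly expressed genes (*Rpl19* and *Rpl4*), beside *Rps3* and *Rpl10*, highly expressed genes without a run of that length. Each window holds 30 bases, 15 before the start and 15 from the start on, and capitals mark the longest run of C and T that touches the 10 bases on either side of the start.
Rps6, chr4:86857353-86857382, minus strand: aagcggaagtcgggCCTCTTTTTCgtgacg
Rplp2, chr7:141447636-141447665, plus strand: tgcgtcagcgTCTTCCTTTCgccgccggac
Rpl38, chr11:114668565-114668594, plus strand: agcggaagcctcgTTCTTTCCCCgttctct
Rpl19, chr11:98026909-98026938, plus strand: tgggCTCTCCCCTTCgcagataatgggcgg
Rpl4, chr9:64173372-64173401, plus strand: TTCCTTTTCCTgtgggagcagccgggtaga
Rps3, chr7:99483695-99483724, minus strand: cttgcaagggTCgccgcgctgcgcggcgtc
Rpl10, chrX:74270801-74270830, plus strand: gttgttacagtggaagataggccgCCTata
In *Rps6*, *Rplp2* and *Rpl38* the run spans the annotated start. In *Rpl19* and *Rpl4* it ends before the start, and in *Rpl4* it is 14 bases long and begins before the window. Where a gene has several annotated starts, as *Rpl19* with 2, the start with the longest run is shown. Runs of this length stood at genes of very different levels, since *Rpl38* had a median of 5.69 CPM per kb of transcript and *Rpl19* one of 2242 CPM per kb. The count table does not measure start sites, so the windows describe the annotation.

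In primary follicles, 3 libraries stood apart and bear on every result of that stage. The median ribosomal protein gene was at 3.12 CPM in primary control 3, 65.6 CPM in primary DM 2 and 27.6 CPM in primary DM 3, and at 177 to 356 CPM in the other 9 libraries. Of the 79 genes, 48, 31 and 36 lay under 10 CPM in those 3 libraries, and 7 to 14 did in each of the others. The same 3 libraries had the fewest genes of any kind above 3 counts, 4206, 4670 and 4850, where the others had 5216 or more.

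As a group the ribosomal protein genes were among the most widely detected in the table. More than 3 counts were found for 64 of 79 (81.0%) in all 12 libraries, against 8.61% of the other 21818 protein-coding genes. Only *Rpl3l* had no such library (1 of 79), while 44.4% of the other protein-coding genes had none. In single libraries 69 to 78 of the 79 were detected. With any count above 0 as the limit, 71 were present in all 12 libraries, and with at least 10 counts, 54.

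Their summed share of the counts lay between 3.23% and 6.42% in all 12 libraries. The sum over the 79 genes was 43861, 39145 and 56661 CPM in primordial control oocytes and 42925, 43747 and 61297 CPM after DM. The sums in primary follicles were 34167, 46293 and 32300 CPM for the controls, against 49812, 64161 and 43665 CPM with DM. The highest library held 6.42% of its counts on these genes and the lowest 3.23%, and the groups overlapped at each stage and under each treatment. Group means ± SD (n = 3 each) were 46556 ± 9063 and 49323 ± 10378 CPM in primordial control and DM, and 37587 ± 7598 and 52546 ± 10518 CPM in primary control and DM. Of the 3 libraries that stood apart, primary control 3 had the lowest sum of all 12 and primary DM 2 the highest. In primary control 3, 60.1% of the sum lay on the 5 leading genes, where the 5 leading genes held 25.8% to 40.4% of the sum in the 9 libraries that did not stand apart.

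**Figure D1:**
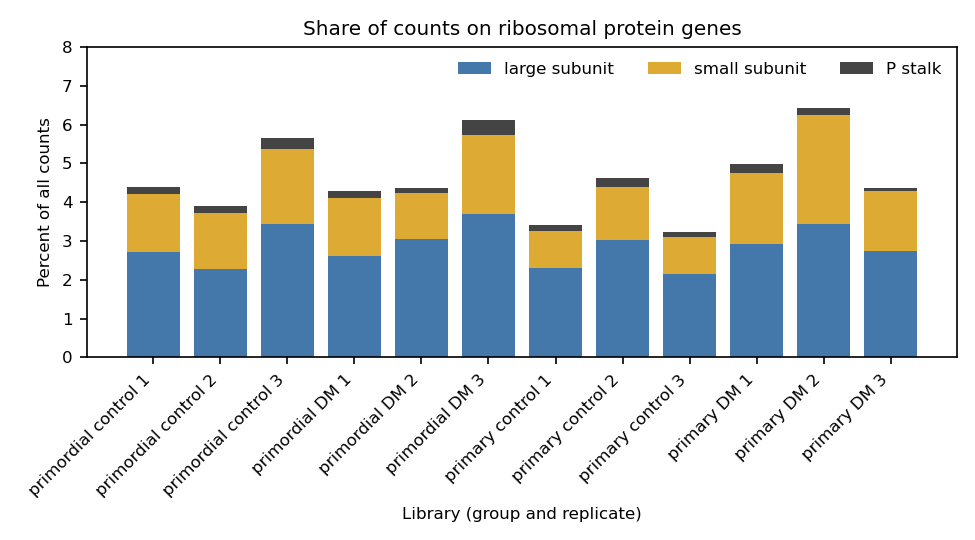
Share of all counts in each library (percent, bars from 0) that fell on genes of the large subunit, the small subunit and the P stalk, for the 3 libraries of each of the 4 groups. The total lies between 3.23% and 6.42% in all 12 libraries.

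**Figure D2:**
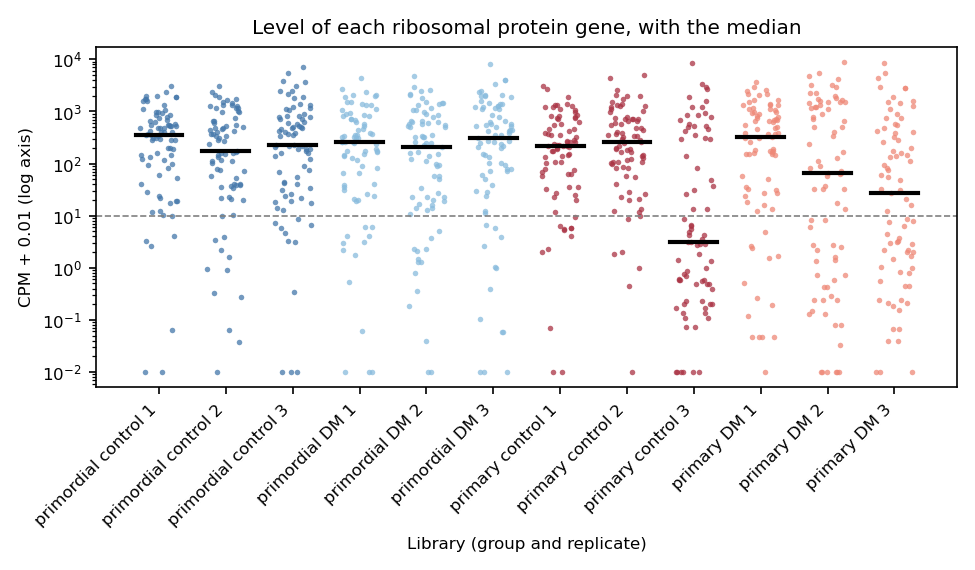
Level of each of the 79 genes in each library (CPM + 0.01, log axis), with the median as a black line and 10 CPM as a dashed line. The median is at 3.12, 65.6 and 27.6 CPM in primary control 3, primary DM 2 and primary DM 3, and at 177 CPM or more in the other 9 libraries.

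The balance between the subunits was followed through their summed levels. The summed CPM of small subunit genes was 0.551, 0.630 and 0.564 times that of large subunit genes in primordial controls and 0.568, 0.382 and 0.547 times after DM. The ratio in primary follicles was 0.414, 0.446 and 0.432 without DM and 0.625, 0.817 and 0.559 with it. The primary DM libraries all lay above the primary controls in this ratio, and primary DM 2, one of the libraries that stood apart, had the highest. The P stalk genes summed to between 789.5 and 4083 CPM, with the lowest value in primary DM 3.

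Single genes held their place far less well than the sum. Among the 68 ribosomal protein genes that reached 100 CPM in some library, the highest library was a median of 1457 times the lowest, with 3 counts as the floor of the lowest, and the same median over the 5553 other genes that reached 100 CPM was 3230.5. Few of the ribosomal protein genes had most of their level in 1 library. A median of 24.8% of a gene's CPM, summed over the 12 libraries, came from its leading library, against 54.1% for the other genes, and 4.41% against 56.1% had more in 1 library than in all others together. Of these 68 genes, 23.5% were under 10 CPM in no library, against 1.80% of the others. These are descriptions with no test.

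The missing genes in the libraries that stood apart were not all the same ones. Under 10 CPM in all 3 of them were 18 genes, and 18 others were under 10 CPM in none. Of the 53 ribosomal protein genes at 10 CPM or more in all 6 primordial libraries, 26 (49.1%) were under 10 CPM in primary control 3, 15 (28.3%) in primary DM 2 and 18 (34.0%) in primary DM 3, and 1 or 2 in each of the other primary libraries. Of the 533 other genes at 10 CPM or more in all 6 primordial libraries, 55.9%, 52.5% and 38.8% were under 10 CPM in the same 3 libraries, and 33.4% were in primary DM 1, where 3.77% of the ribosomal protein genes were.

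**Figure D3:**
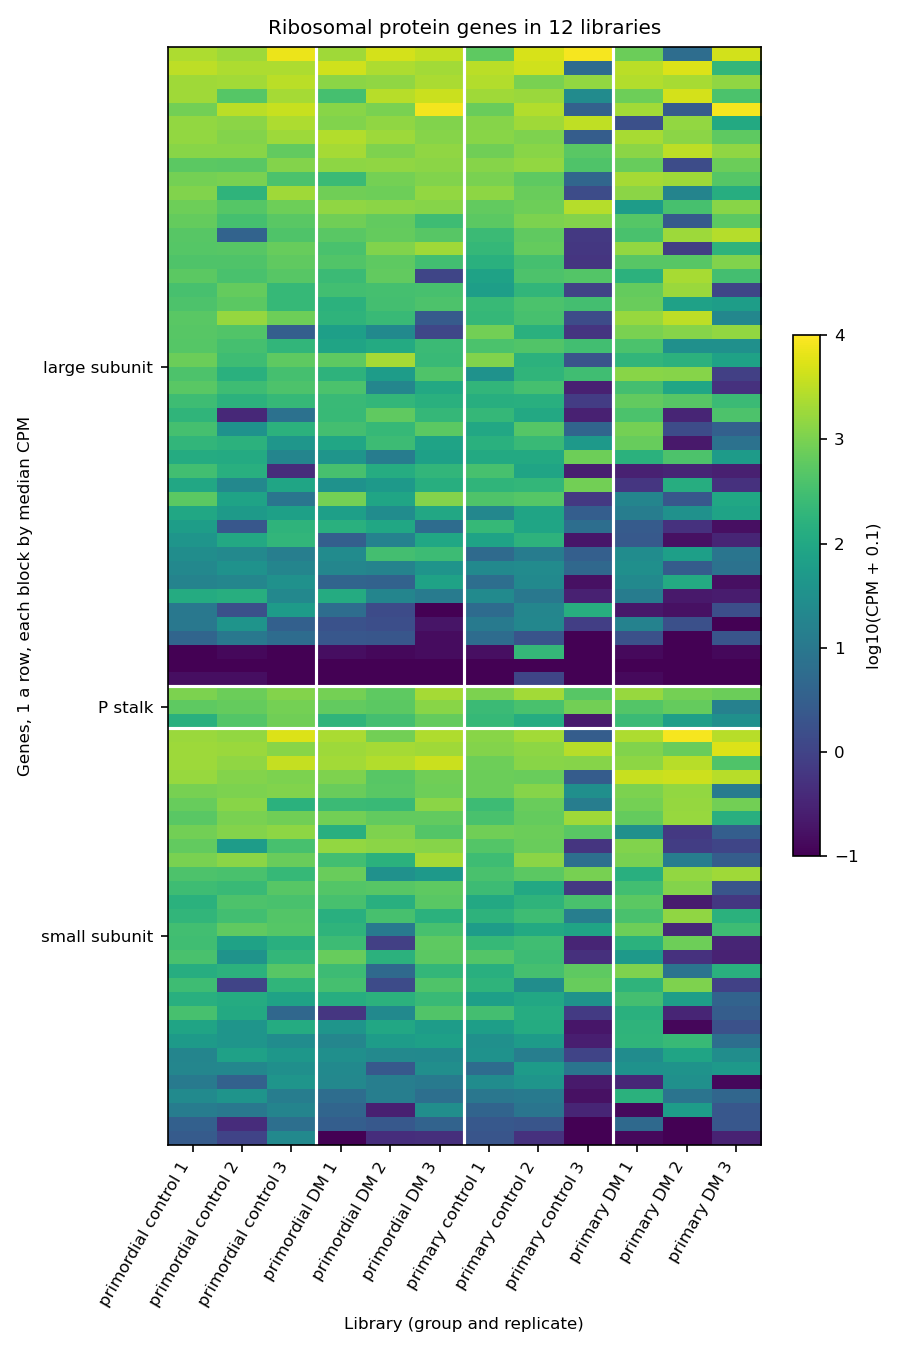
Level of each of the 79 genes (rows, in blocks of large subunit, P stalk and small subunit, each ordered by median CPM) in each of the 12 libraries (columns), as log10(CPM + 0.1). Dark cells are dense in primary control 3, primary DM 2 and primary DM 3, and the lowest rows of the large subunit block, *Rpl39l*, *Rpl3l* and *Rpl10l*, are dark in nearly every column.

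Per kb of transcript, the highest median over the 12 libraries was that of *Rpl32*, a 60S protein, at 5304 CPM per kb. *Rpl17*, at the exit of the peptide tunnel, had 2586 CPM per kb and *Rpl9*, another 60S protein, 2491 CPM per kb. By plain CPM, *Rpl32*, *Rpl17*, *Rpl9*, *Rpl19*, *Rps3*, *Rpl10* and *Rpl23* were among the 10 highest genes with counts in all libraries, the lowest of which had a median of 1322 CPM. The ranges of neighbours in that order overlapped, and that of *Rpl32* ran from 5.43 to 5397 CPM.

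Few of the genes never fell below 100 CPM. *Rplp0*, the anchor of the P stalk and a common reference gene, had 1045, 737 and 1188 CPM in primordial controls, 915, 576 and 2116 after DM, 1044, 1987 and 513 in primary controls and 1677, 913 and 742 after DM. *Rpl17* ran from 972 to 3075 CPM and *Rpl4*, another 60S protein, from 535 to 3239 CPM. *Rps3*, a 40S protein with an added role in DNA repair, ran from 423 to 3976 CPM and *Rps15*, also of the 40S subunit, from 141 to 1926 CPM. The groups of these 5 genes overlapped in each comparison of 2 groups, except those of *Rpl4* in primary follicles and of *Rps3* between the control stages.

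Of the 2 other P stalk genes, *Rplp1* fell to 15.7 CPM in primary DM 3 and lay between 259.7 and 1302 CPM elsewhere. *Rplp2* ran from 0.129 CPM in primary control 3 to 831 CPM in primordial control 3. The genes fixed by their roles covered the whole range of levels. *Rps6*, the 40S protein that S6 kinases phosphorylate, was low throughout, with 11.7, 3.40 and 40.1 CPM in primordial controls, 21.2, 13.9 and 11.1 after DM, 26.9, 41.0 and 0.129 in primary controls and 0.254, 33.0 and 0.0285 after DM, with a median of 14.6 CPM per kb. *Rpl5* and *Rpl11*, which carry the 5S RNA and can bind Mdm2, differed in level, at medians of 44.4 and 1096 CPM per kb. *Rpl11* was at 255 CPM or more in every library but primary control 3, where it was at 4.27 CPM, while *Rpl5* ran from 0.579 to 1183 CPM. *Rps19*, needed for 40S maturation and mutated in Diamond-Blackfan anaemia, was at 36.7 to 682 CPM in primordial follicles and under 1 CPM in primary control 3, primary DM 2 and primary DM 3. *Rpl22*, a nonessential RNA-binding protein of the 60S subunit, had a median of 39.0 CPM per kb. *Rpl38*, known for its part in the translation of *Hox* mRNAs, had 10.1 CPM in its highest library and was under 10 CPM in the other 11. *Rpl10*, which joins the 60S subunit last, lay between 1109 and 3353 CPM in 10 libraries but had 1.56 CPM in primary DM 1 and 110.5 CPM in primary DM 3.

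The paralogs had few counts. *Rpl3l*, known from heart and skeletal muscle, had 0 counts in all 12 libraries. *Rpl10l*, a retrogene known from male germ cells, had at most 14 counts, in primary control 2. *Rpl39l*, also known from male germ cells, had 3049 counts (217 CPM) in primary control 2 and at most 2 counts in every other library, so 99.7% of its counts were in 1 library. *Rps27l*, a p53 target, ran from 0 to 360 counts. Their partners were higher, since *Rpl3*, *Rpl10* and *Rpl39* had more than 3 counts in all libraries and medians of 206, 1777 and 169 CPM per kb. *Rpl39* had only 5 to 10 counts in 5 of the 12 libraries. *Rps27* had a median of 2041 CPM per kb against 0.725 for *Rps27l*, but only 1.35% of its 50-base words were unique to it and 98.6% were shared with *Rps27rt*.

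Shared sequence limits how exactly single genes can be counted. Fewer than 50% of the 50-base words of the transcript were found in no other annotated gene for 45 of the 79 genes, 50% to under 90% were for 26, and 90% or more for 8. The median level of these classes was 356, 280.1 and 29.8 CPM per kb, and the last class holds *Rpl3l*, *Rpl10l* and *Rpl39l*. Levels of genes with few unique words, such as *Rpl9* (6.68%), *Rpl10* (7.87%) and *Rps6* (15.4%), are uncertain, as the treatment of reads with several matches is not stated. The same limit holds for genes named in the comparisons below, such as *Rpl5* (6.16%), *Rps18* (13.3%), *Rpl36a* (14.5%), *Rps4x* (27.8%) and *Rpl29* (33.4%). *Rpl29* shares 49.2% of its words with *Uimc1*. *Rpl39* (83.5%) and *Rpl14* (50.7%), also named there, have more unique words. Exons of 36 of the genes overlap another annotated gene, 26 of them on the same strand, small nucleolar RNA genes among them, and whether the counting used strand is not stated.

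DM was compared with control in oocytes of primordial follicles with edgeR's quasi-likelihood test on all genes tested (filterByExpr, TMM scaling, Benjamini-Hochberg adjustment, threshold 0.05). Of 76 ribosomal protein genes tested, 0 passed and 0 had an unadjusted p under 0.05, and DESeq2 called 0 of the 71 it tested. The share of all 6699 genes called was 0.0149% (edgeR, adjusted) and 7.33% at an unadjusted p under 0.05, and DESeq2 called 5.62% of its genes. The smallest adjusted p of a ribosomal protein gene was 0.658. The median log2 fold change of the 76 genes was 0.44 under TMM, beside 0.13 over all genes tested, and 72.4% of them were higher after DM, beside 52.0% of all. With library size alone as the scale the medians were -0.15 and -0.43, and 42.1% were higher, beside 42.7% of all. The sign of the group's median thus depended on the scaling. Its distance from the median of all genes was 0.31 and 0.27 in these fits and 1.05 with DESeq2, but it ran from -0.16 without primordial control 1 to 1.45 without primordial DM 1 and was -0.10 for genes with at least 10 counts in every library, so its sign was not stable either. The median standard error of a single gene's log2 fold change was 2.08 for the ribosomal protein genes and 2.84 for all genes.

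The genes with the smallest p in primordial follicles came from both subunits. *Rps18*, at the head of the 40S subunit, had 615, 58.0 and 348 CPM in controls and 1543, 1359.6 and 1258 CPM after DM, and the groups did not overlap. Its log2 fold change was 2.81 ± 1.48 (SE, adjusted p = 0.658, edgeR). *Rpl5* had 557, 78.4 and 8.80 CPM in controls and 903, 87.9 and 1183 CPM after DM (log2 fold change 2.79 ± 1.87, adjusted p = 0.696, edgeR), with overlapping groups. *Rpl9* followed at 1.43 ± 1.01 (adjusted p = 0.714, edgeR). In the other direction, *Rps27l* had 2.62, 0.917 and 23.8 CPM in controls and 0, 0.344 and 0.380 CPM after DM. *Rpl36a*, a 60S protein, had 536, 1629 and 771 CPM in controls and 176, 244 and 2.61 CPM after DM. *Rpl6*, per kb the lowest 60S gene after *Rpl3l*, *Rpl10l* and *Rpl39l*, had 10.1, 39.2 and 3.31 CPM in controls and 1.75, 1.46 and 0.0950 CPM after DM. The groups of these 3 genes did not overlap. Their log2 fold changes were -4.67 ± 2.98 (adjusted p = 0.673), -2.54 ± 1.81 (adjusted p = 0.718) and -3.79 ± 3.08 (adjusted p = 0.771, edgeR). Single libraries carried much of these values, which were -2.02 for *Rps27l* without primordial control 3, and -1.58 for *Rpl36a* and -1.71 for *Rpl6* without primordial control 2. That of *Rpl9* was 0.73 without primordial DM 3, and that of *Rpl5* was 4.27 without primordial control 1. Groups did not overlap for 11 of the 76 genes (14.5%), beside 13.0% of all genes tested. Among those higher in all DM libraries were *Rpl10a*, *Rpl27*, *Rpl31*, *Rpl34* and *Rps18*, and lower in all were *Rpl36a*, *Rpl38*, *Rpl6*, *Rps27l* and *Rps9*.

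In oocytes of primary follicles 74 ribosomal protein genes were tested and edgeR called 0, with 0 at an unadjusted p under 0.05 and a smallest adjusted p of 0.396. Over all 4181 genes edgeR called 0.0%, and 12.2% had an unadjusted p under 0.05. DESeq2 called 17 of the 56 ribosomal protein genes for which it gave a p (30.4%), all higher after DM, beside 7.53% of all its genes. With the 3 libraries that stood apart left out, a choice made after seeing the data, 2 controls and 1 DM library remained. The DM arm then had no replicate, so only effect sizes are given. In that DESeq2 fit the median log2 fold change of the ribosomal protein genes was 2.77, beside -1.27 over all its genes. With all 6 libraries the DESeq2 medians were 3.09 and 0.66. Positive values were found for 63 of the 78 ribosomal protein genes and for 5114 of all 13036 genes in the fit without the 3 libraries. *Rps4x* was at 4.73 and *Rpl36a* at 5.00 there. The median log2 fold change of the 74 genes was 1.37 under TMM, 0.32 under library size alone and 2.87 in edgeR scaled with the DESeq2 factors, and the medians over all genes tested were 0.31, -0.96 and 2.04. The distance between the group and all genes was 1.06, 1.29 and 0.82, and 2.43 with DESeq2. With single libraries left out it ran from 0.64 (without primary control 1) to 3.98 (without primary DM 3), with 3.54 without primary DM 1, 2.40 without primary DM 2 and 1.94 without primary control 3. Positive log2 fold changes were found for 71.6% of the 74 genes, beside 52.6% of all genes tested. Under library size alone the shares were 56.8% and 40.1%. Over the 5 fits, DESeq2's size factors ran from 0.0459 to 8.19 times those that library size gives, and the TMM factors from 0.244 to 3.07.

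Some genes stood far apart between the primary groups. *Rps4x*, the X-linked gene of a 40S protein, had 746, 707 and 2.70 CPM in controls and 3729, 4232 and 2869 CPM after DM. The groups did not overlap, and the DM libraries were also above all 6 primordial libraries, the highest of which had 1699.9 CPM. Its log2 fold change was 4.91 ± 2.94 (adjusted p = 0.408, edgeR), and 7.48 ± 1.93 (adjusted p = 0.00266) with DESeq2. *Rpl36a* had 217, 354 and 1.38 CPM in controls and 1666, 3186 and 20.6 CPM after DM, with overlapping groups (log2 fold change 5.29 ± 3.22, adjusted p = 0.414, edgeR). In both genes primary control 3 was far below the other controls. When any 1 library was dropped, the log2 fold change of *Rps4x* was 4.53 at the lowest and 5.47 at the highest.

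The 3 genes of smallest p on the lower side encode 60S proteins. *Rpl26*, which binds p53 mRNA, had 5.52, 19.7 and 139 CPM in controls and 0.109, 0.0704 and 1.45 CPM after DM. *Rpl14* had 223, 85.9 and 6.43 CPM in controls and 2.58, 0.422 and 0.0570 CPM after DM. The groups of both genes did not overlap, and their log2 fold changes were -7.15 ± 3.92 (adjusted p = 0.396) and -5.40 ± 3.39 (adjusted p = 0.420, edgeR). Without primary control 3, that of *Rpl26* was -2.29. *Rpl41*, which encodes a very short peptide at the subunit interface, had 78.7, 169.6 and 0.0964 CPM in controls and 2.44, 0.0704 and 0.228 CPM after DM, with overlapping groups (-5.13 ± 3.29, adjusted p = 0.427, edgeR). Groups did not overlap for 11 of the 74 genes (14.9%), beside 13.0% of all genes tested. Among those higher in all DM libraries were *Rpl12*, *Rpl29*, *Rpl4*, *Rpl7*, *Rps27* and *Rps4x*, and lower in all were *Rpl13*, *Rpl14*, *Rpl26* and *Rps7*.

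**Figure D4:**
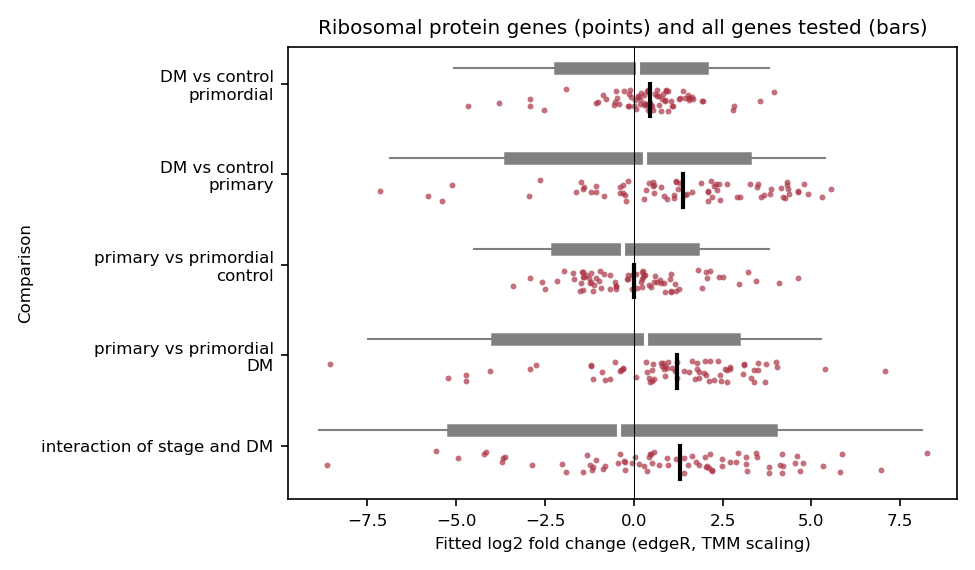
Fitted log2 fold changes (edgeR, TMM scaling) of the ribosomal protein genes tested (points, median as a black line) and of all genes tested (thick grey bar from the lower to the upper quartile, thin bar from the 10th to the 90th percentile, white mark at the median) in the 5 comparisons. The medians of the ribosomal protein genes are 0.44, 1.37, 0.01, 1.20 and 1.31, beside 0.13, 0.31, -0.31, 0.35 and -0.42 over all genes.

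Primary and primordial follicles were first compared in the control libraries. Of 76 ribosomal protein genes tested, edgeR called 0 and 0 had an unadjusted p under 0.05, beside 0.0% and 6.44% of all 6726 genes, and DESeq2 called 0 of 50, beside 2.41%. Their median log2 fold change was 0.01, beside -0.31 over all genes, and -0.48 beside -0.50 under library size alone. With DESeq2 the median was -0.59 for the 50 ribosomal protein genes, beside 0.37 over all its genes. The group's median thus lay below that of all genes with DESeq2, and the sign of its distance depended on the method. The smallest p on the higher side of primary follicles came from *Rpl13*, a 60S protein, with 99.8, 21.5 and 88.6 CPM in primordial and 190.5, 201 and 846 CPM in primary controls (log2 fold change 4.62 ± 2.51, adjusted p = 0.749, edgeR). The groups did not overlap, but without primary control 3 the value was 1.61. *Rpl7a* and *Rpl31* followed with 4.07 ± 2.46 (adjusted p = 0.768) and 2.95 ± 2.16 (adjusted p = 0.832, edgeR), and without the same library they were at 0.34 and 0.07. On the lower side were *Rps27l* (-3.41 ± 2.98, adjusted p = 0.864), *Rpl36a* (-2.59 ± 2.32, adjusted p = 0.867) and *Rpl37* (-2.51 ± 2.49, adjusted p = 0.887, edgeR). *Rps27l* was at -0.80 without primordial control 3 and *Rpl36a* at -1.67 without primordial control 2. *Rpl37*, a 60S protein, had 356, 655 and 226 CPM in primordial and 62.5, 192 and 0.868 CPM in primary controls, with no overlap. Groups did not overlap for 12 of the 76 genes (15.8%), beside 9.69% of all genes, and 11 of the 12 were lower in primary follicles in CPM, *Rpl12*, *Rpl21*, *Rpl7*, *Rps13*, *Rps14*, *Rps2*, *Rps3*, *Rps4x* and *Rps7* among them. Of all genes whose groups did not overlap, 87.3% were lower. The direction of *Rps3* and *Rps7* turned with the scaling, as their log2 fold changes under TMM were 0.25 and 0.24.

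In the DM libraries 75 ribosomal protein genes were tested between the stages and edgeR called 0, beside 0.0% of all 4331 genes. At an unadjusted p under 0.05 were 2 of 75, beside 17.2% of all genes, and DESeq2 called 5 of 68 (4 higher and 1 lower in primary follicles), beside 10.3%. With the 3 libraries that stood apart left out, 1 primary library remained, so only effect sizes are given. In that DESeq2 fit the median log2 fold change was 1.52, beside -1.49 over all its genes, and 2.45 beside 0.83 with all libraries. In the edgeR fit of all libraries the median was 1.20, beside 0.35 over all genes, and under library size alone -0.16 beside -0.96. Higher in primary follicles were 76.0% of the genes under TMM, beside 53.3% of all genes tested. Under library size alone the shares were 42.7% and 39.0%. *Rpl29*, a 60S protein that mice can live without, had 66.6, 23.3 and 1.05 CPM in primordial and 985, 1219 and 1574 CPM in primary follicles (log2 fold change 7.07 ± 3.08, adjusted p = 0.286, edgeR). Its groups did not overlap, and its adjusted p was 0.000273 with DESeq2. *Rpl39*, which lines the peptide exit tunnel, had 353, 124 and 195 CPM in primordial and 0.182, 0.235 and 0.171 CPM in primary follicles (-8.54 ± 3.90, adjusted p = 0.286, edgeR). All 3 primary DM libraries were near the limit of 3 counts, as were primary control 3 at 0.161 CPM and primordial control 3 at 0.331 CPM, while the other controls were at 82.9 CPM or more. *Rpl36a* and *Rps4x* were on the higher side (5.39 ± 2.73, adjusted p = 0.292, and 3.72 ± 2.16, adjusted p = 0.332, edgeR) and *Rpl14* and *Rpl41* on the lower side (-5.24 ± 3.21, adjusted p = 0.352, and -4.73 ± 3.06, adjusted p = 0.378, edgeR). *Rpl36a* was at 3.34 without primary DM 2 and *Rpl41* at -2.33 without primordial DM 3. Groups did not overlap for 12 of 75 genes (16.0%), beside 18.5% of all genes tested.

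Whether DM acted differently in the stages was tested through the interaction in a fit of all 12 libraries. Of 76 ribosomal protein genes edgeR called 0, with 3 at an unadjusted p under 0.05, beside 0.0% and 18.9% of all 8500 genes, and DESeq2 called 8 of 64, all positive, beside 4.89% of its genes. With the 3 libraries left out, 1 primary DM library remained, and the median interaction with DESeq2 was 2.57, beside 1.08 over all its genes. With all 12 libraries in edgeR it was 1.31 on the log2 scale, beside -0.42 over all genes, and 0.29 beside -1.25 under library size alone. A positive value says that the change with DM was higher in primary than in primordial follicles. *Rpl36a* had the smallest p, at 8.24 ± 3.37 (adjusted p = 0.181, edgeR), as it was lower in every DM library of primordial follicles and higher in 2 of 3 DM libraries of primary follicles than in any control of the same stage. *Rpl29* and *Rps4x* followed at 6.96 ± 3.45 (adjusted p = 0.253) and 5.33 ± 2.92 (adjusted p = 0.294, edgeR). On the negative side were *Rpl39* at -8.65 ± 4.40 (adjusted p = 0.264), *Rps7*, a 40S protein, at -4.94 ± 3.53 (adjusted p = 0.423) and *Rpl14* at -5.56 ± 4.18 (adjusted p = 0.447, edgeR). *Rps7* had 854, 1164 and 1419 CPM in primordial controls, 142, 1074 and 449 after DM, 822, 739 and 524 in primary controls and 32.2, 0.563 and 3.08 after DM.

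**Figure D5:**
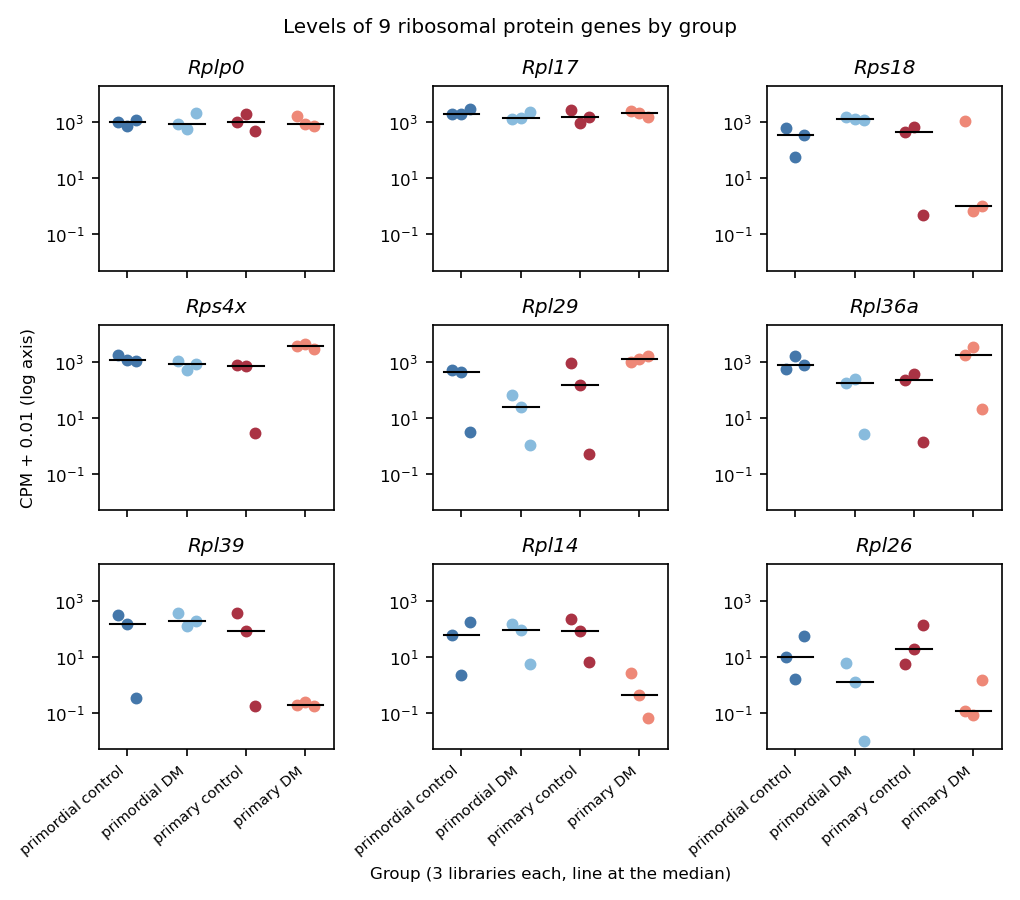
Levels (CPM + 0.01, log axis) of 9 ribosomal protein genes in the 3 libraries of each group, with a line at the group median. *Rplp0* and *Rpl17* lie between 513 and 3075 CPM in all libraries, *Rps4x* and *Rpl29* are high in all 3 primary DM libraries, and *Rpl39* and *Rpl14* are low there.

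Other genes of the translation machinery were followed as lists. The 8 ribosomal proteins whose names lie outside the pattern (*Rpsa*, *Fau* and *Rack1* among them) summed to between 1897 and 8538 CPM, and 5 of 8 had more than 3 counts in all libraries. *Rpsa*, of the 40S subunit, was at 1315 CPM or more in every library. The 8 translation genes listed as beginning with a pyrimidine run were *Eef1a1*, *Eef1b2*, *Eef1d*, *Eef1g*, *Eef2*, *Tpt1*, *Pabpc1* and *Npm1*. Their start sites were not examined one by one here. They summed to between 5599 and 20137 CPM, and *Pabpc1*, the poly(A)-binding protein, led them with 14834 CPM in primary DM 2. The 22 genes of ribosome biogenesis reached a sum of 4192 CPM and were lowest in primary control 3, with 6 of 22 detected in all libraries. The 78 genes of the mitochondrial ribosome summed to between 58.4 and 3073 CPM, and 1 of 78 was detected in all libraries. With edgeR, 0 genes of these 4 lists passed an adjusted p under 0.05 in the 5 comparisons. DESeq2 called 0 translation genes in all 5. In primordial follicles it called 1 of 10 biogenesis genes (lower after DM), beside 5.62% of all its genes. In primary follicles it called 4 of 44 mitochondrial genes (all higher) and 3 of 16 biogenesis genes (2 higher and 1 lower), beside 7.53%. Of the further ribosomal proteins it called 1 of 4 there (higher). Between the control stages it called 2 of 47 mitochondrial genes (all higher) and 1 of 13 biogenesis genes (lower), beside 2.41%. Between the stages under DM it called 5 of 46 mitochondrial genes (4 higher and 1 lower), beside 10.3%. It also called 1 of 13 biogenesis genes and 1 of 8 further ribosomal proteins there (all lower). In the interaction it called 5 of 44 mitochondrial genes (all positive), beside 4.89%. Of 12 biogenesis genes it called 1 positive and 1 negative in the interaction. At an unadjusted p under 0.05 edgeR had 0 genes of the lists in primordial follicles, beside 7.33% of all genes. In primary follicles it had 2 of 11 biogenesis and 3 of 6 mitochondrial genes, beside 12.2%. Between the control stages it had 2 of 16 biogenesis genes and 1 of 17 mitochondrial genes, beside 6.44%. Between the stages under DM it had 1 of 7 further ribosomal proteins, 1 of 9 biogenesis and 1 of 5 mitochondrial genes, beside 17.2%. The interaction had 11 of 34 mitochondrial ribosomal protein genes tested (6 positive and 5 negative), 3 of 19 biogenesis genes, 1 of 8 further ribosomal proteins and 0 of 8 translation genes, beside 18.9% of all genes.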

How the data were processed

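Counts of reads per gene were deposited for 12 libraries of laser-captured oocytes. After trimming (trim_galore), the authors aligned reads to mm10 with TopHat2 (STAR in the submitters' processing notes), and they deposited the counts from featureCounts on an Ensembl annotation without normalization. The treatment of reads with several matches and of strand is not given in the sources used here. The RNA was amplified before library preparation, for which the descriptions name both TruSeq RNA Access and Smart-seq II.

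Groups came from the sample labels. Of 55401 rows, 55141 matched GENCODE M21 (GRCm38, the same build as mm10), which gave symbols, gene types and overlaps. CPM is the count over the library's total, from 14034586 to 42639326, and CPM per kb uses 1 transcript a gene. A gene with more than 3 counts was taken as detected. No library repeated another, since chi-square per degree of freedom was at least 1146 within groups, and each library was 1 sample. The p-values measure the spread between these libraries.

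Comparisons used edgeR 4.0.16 in R 4.3.3 (filterByExpr, TMM, glmQLFit and glmQLFTest, default prior count, Benjamini-Hochberg over all genes tested, threshold 0.05) on the libraries of the groups compared. SE is the absolute log2 fold change over the square root of F. The code was tested on simulated data. Sums over the genes were not tested. Alternatives were DESeq2 1.42.0, its size factors in edgeR, library size alone, an unadjusted p, no filter, a minimum of 10 counts per library, all 12 libraries in 1 fit, a replicate block and each library left out. Leaving out 3 libraries together was added after seeing the data. Transcripts were compared by words of 50 bases, and start sites came from RefSeq (GRCm38.p6). Tables used Python 3.11.15.

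The genes and all lists were chosen with earlier results of these data known. Named are, for each comparison, up to 3 ribosomal protein genes in each direction with the smallest p, the 10 with the highest median CPM among those detected in all libraries, genes fixed by role and paralogs with their partners. Genes never below 100 CPM, those whose groups did not overlap and the genes of extreme level were named after their values were seen. Some genes that these rules select are not reported here.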

Additional observations from a re-analysis of the deposited data

How the results depend on the processing

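With edgeR, 0 ribosomal protein genes passed the adjusted threshold in the 5 comparisons under every scaling, filter, block and left-out library run. DESeq2 called 17 between DM and control in primary follicles, 5 between the stages under DM and 8 in the interaction. These were 30.4%, 7.35% and 12.5% of the ribosomal protein genes it tested, beside 7.53%, 10.3% and 4.89% of all its genes. DESeq2 fits with the 3 libraries of low medians left out, an alternative added after seeing the data, keep 1 primary DM library. That library is assumed to vary like the others, so these fits give effect sizes only. The median log2 fold changes of the ribosomal protein genes in them were 2.77, 1.52 and 2.57, where those with all libraries were 3.09, 2.45 and 2.30. Over all genes the medians were -1.27, -1.49 and 1.08, where those with all libraries were 0.66, 0.83 and 1.31. In edgeR without the 3 libraries the ribosomal protein genes had medians of 1.88, 1.00 and 1.17, beside -5.37, -5.45 and -2.36 over all genes. At an unadjusted p under 0.05, edgeR had 2 between the stages under DM and 3 in the interaction. The median log2 fold change of the genes between DM and control in primordial follicles was 0.44, and it was 1.10 with DESeq2, 1.11 with its size factors in edgeR, -0.15 with library size alone and 0.11 with at least 10 counts in every library. With single libraries left out it ran from 0.049 (without primordial DM replicate 3) to 0.64. Between the stages under DM it was 1.20, 2.98 with DESeq2's size factors in edgeR and -0.16 with library size alone. The groups share replicate numbers, but same-numbered libraries did not deviate together, as their correlations ran from -0.05 to 0.05 and 0 of 12 pairs were above 0.1. The fit with the number as a replicate block gave medians of 0.41, 1.21, -0.37, 0.23 and 1.07 and 0 calls in the 5 comparisons. For the up to 3 genes of smallest p in each direction of a comparison, no log2 fold change changed sign in the alternatives that tested the gene. Not every alternative did, as DESeq2 with all libraries gave no p for *Rpl26* in primary follicles. That the signs held is no independent check, since these genes were picked by their p in the same libraries. Where their adjusted p passed the threshold, it was in a DESeq2 fit. Signs of other named genes were less stable, as *Rpl5* between DM and control in primary follicles was at -1.07 with edgeR and 1.41 with DESeq2. The summed CPM moved by less than the SD of its group in all 12 libraries when the 10 largest genes were set aside. Why the scalings differ was not tested. The median SE of the genes on the log2 scale ran from 2.08 to 3.44 over the 5 comparisons, and the part of depth in it was not tested.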

Other observations

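Rows named as pseudogenes of a ribosomal protein, by a symbol with -ps after the number, numbered 290. Together their CPM came to between 0.142% and 2.23% of the summed CPM of the ribosomal protein genes. The lowest share was in primary control 3 and the highest in primary control 2. Genes under other names that share sequence are not in this sum, such as *Gm6472*, which holds 60.8% of the 50-base words of *Rps7*. How much was counted on those was not tested. The chromosomes of the 79 genes were 19 in number, with 14 genes on chromosome 7.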
